A study of Mus musculus with 2 samples.

Results

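Mitosis genes were read in superficial zone cells, the flattened chondrocytes at the surface of articular cartilage that secrete the lubricant lubricin. The group is a list of 42 gene symbols, and all probe sets whose annotated gene symbol was exactly one of them were taken. Of these, 41 were found among the 18193 named genes on the array, and no probe set carried the symbol Ccnb1. The source was the joint cartilage of femur and tibia in ICR mice 4 days after birth, and the cells were kept for 24 h with 10 μM retinoic acid (n = 1), the vitamin A metabolite that acts on nuclear receptors, or without it (control, n = 1). Each culture was read on 1 Affymetrix mouse genome array, as a MAS5 signal, the linear intensity that combines the probes of a probe set. No replicates existed, so no significance test was possible, no p-value is given, and every ratio holds for these 2 arrays only. The number of animals behind each culture, and whether both shared a cell preparation, is not stated in the labels.

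Mitosis is run by cyclin-dependent kinase Cdk1, which is switched on by A and B cyclins at mitotic entry and switched off when the anaphase-promoting complex marks those cyclins for destruction. Between these steps kinesin motors build the spindle, kinetochores tie chromosomes to it, and the spindle assembly checkpoint holds back anaphase until every kinetochore is attached. Most of the genes are transcribed only in dividing cells, late in the cell cycle, when the complex of MuvB with B-Myb and then FoxM1 acts at a promoter element called the cell cycle genes homology region (CHR), often beside CCAAT boxes bound by NF-Y. In resting cells the related DREAM complex represses the same genes. The superficial zone of young joints holds slowly dividing progenitor cells, and retinoic acid is known to drive chondrocytes out of their differentiated state.

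All 41 genes had a higher signal with retinoic acid than in control. Signals ran from 59.1 to 983 (median 275) on the retinoic acid array, against 31.6 to 462 (median 124) on the control array. All 41 lay above the median signal of both arrays, which was set as the floor for a usable value. The members' log2 ratio of retinoic acid over control had a median of 1.02, a 2.02-fold difference, against 0.017 over all 11884 measured genes. At least 2-fold higher were 21 members, where 6.54% of all measured genes were, and 0 were at least 2-fold lower, where 4.34% of all genes were. At least 1.5-fold higher were 36 of 41, against 14.3% of all genes. A log2 ratio above 0 was found for 51.6% of all genes. With 1 array per group these shares are a description of the arrays. Because RNA was taken from whole cultures, more dividing cells and more of these transcripts per cell cannot be told apart.

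**Figure D1:**
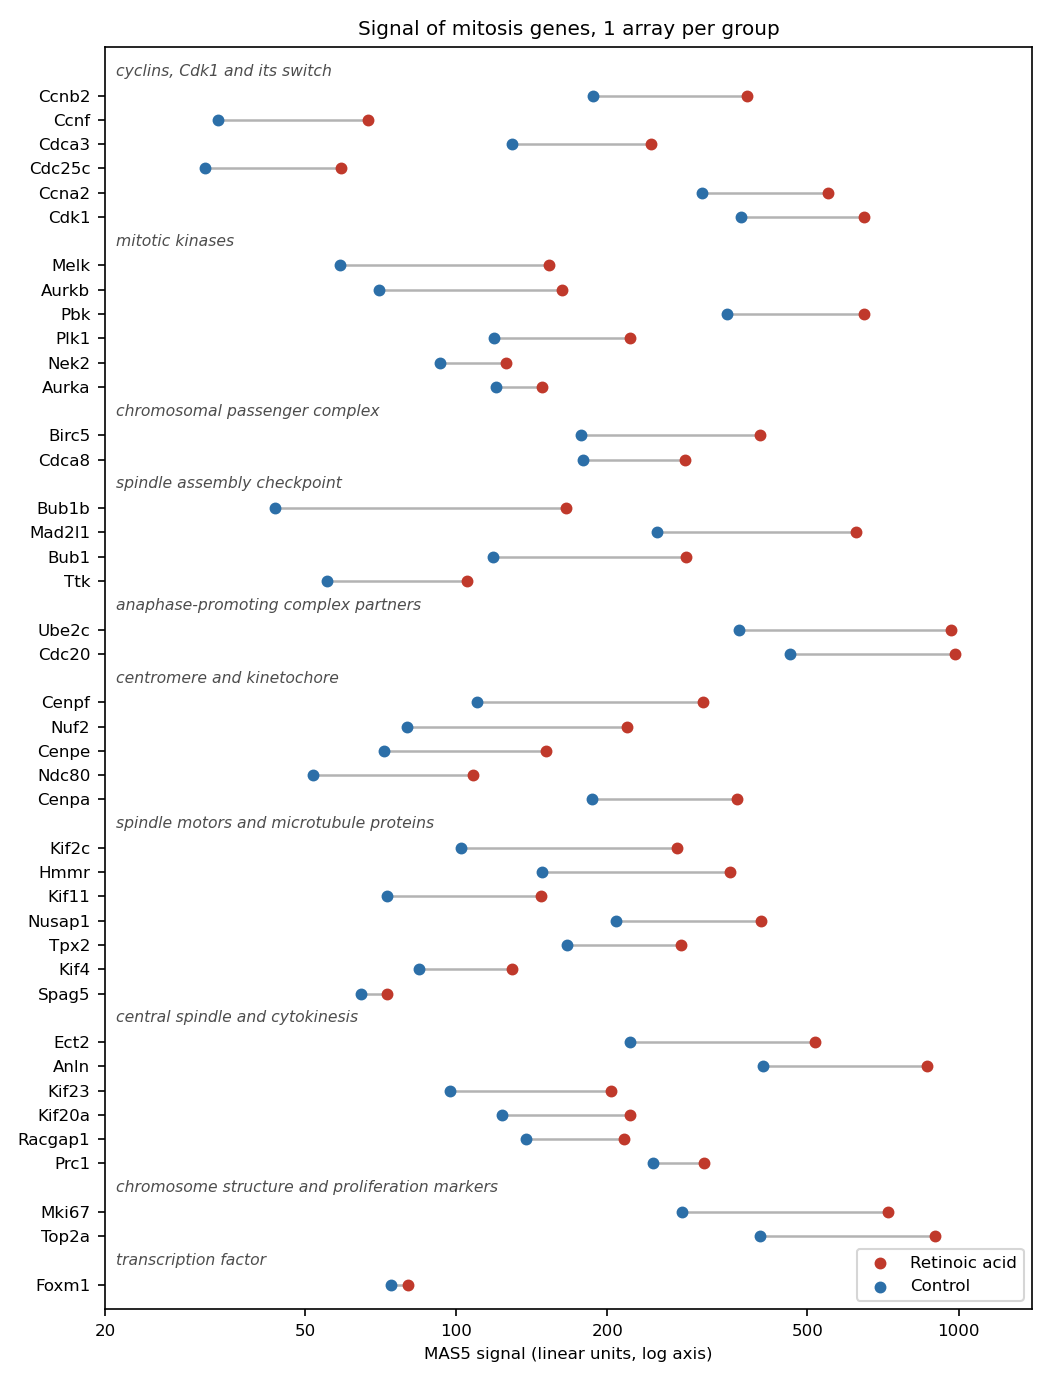
MAS5 signal of the 41 mitosis genes (log axis), grouped by role, with 1 point for the retinoic acid array and 1 for the control array; the grey line joins them. Every retinoic acid point lies to the right of its control point, with the widest gap for Bub1b and the narrowest for Foxm1.

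The members' ratios lay close together. They had an interquartile range of 0.83 to 1.22, a width of 0.39, against −0.29 to 0.33, a width of 0.63, over all measured genes. The difference was of similar size at low and high signal: the 15 members with a control signal under 100 had a median log2 ratio of 1.02 and the 26 others 0.99. Across the 41 members the Pearson correlation of log2 ratio with mean log2 signal was 0.19, a description over genes that share the same 2 arrays. Near the 2-fold line, Kif11 (2.02-fold), Ccnb2 (2.03-fold) and Ndc80 (2.08-fold) lay just inside, and Ccnf (1.99-fold), Nusap1 (1.94-fold) and Cenpa (1.94-fold) just outside. The count of 21 depends on that line and on the floor. When the floor was raised to the 70th percentile, 34 members were measured and 13 were at least 2-fold higher, and with only probe sets named as unique to a transcript 12 of 31 were.

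**Figure D2:**
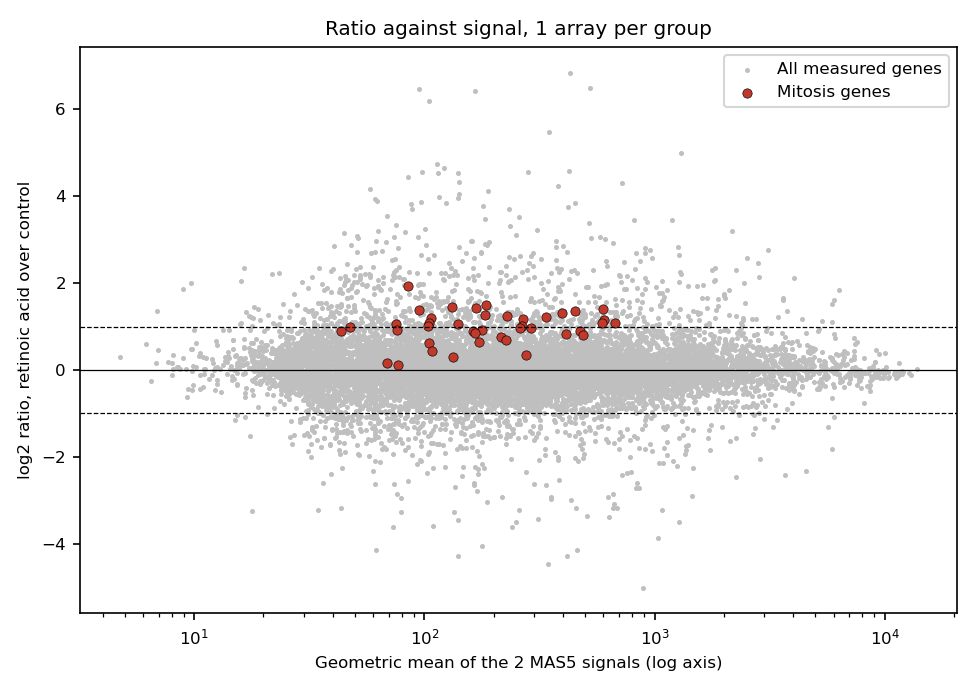
The log2 ratio of retinoic acid over control against the geometric mean of the 2 MAS5 signals (log axis) for all 11884 measured genes in grey and the 41 mitosis genes in red. Dashed lines mark 2-fold. The mitosis genes lie between 0.12 and 1.93, and both extremes, Foxm1 and Bub1b, are toward the low end of their signals.

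The region before the gene start is shown for 6 members picked by hand as examples, since the genes were higher together and carry known shared elements. RefSeq start windows (GRCm38.p6) of 250 bases before to 50 after the start matched 35 of the 42 genes; Ccna2, Aurkb, Kif20a, Tpx2, Foxm1, Cdc25c and Pbk had none. For genes with several windows the first listed was used. The letters TTTGAA (CHR) and CCAAT (Y box, the core bound by NF-Y) were searched on both strands, and E2F motifs as TTCCCGC or TTGGCGC. A Y box on the opposite strand can overlap an E2F motif by the letters TTGG. The 150 bases before the start are printed below, 5′ to 3′ on the gene's strand, with CHR motifs and Y boxes in capitals. Top2a (chr11:99024190-99024339, minus strand), Ube2c (chr2:164769779-164769928, plus strand), Cdk1 (chr10:69352913-69353062, minus strand) and Kif11 (chr19:37376232-37376381, plus strand) hold a CHR motif within 30 bases of the start, with Y boxes upstream of it. Ccnb2 (chr9:70421555-70421704, minus strand) shows evenly spaced Y boxes, and Mad2l1 (chr6:66535071-66535220, plus strand), 2.48-fold higher, has neither motif.
Top2a: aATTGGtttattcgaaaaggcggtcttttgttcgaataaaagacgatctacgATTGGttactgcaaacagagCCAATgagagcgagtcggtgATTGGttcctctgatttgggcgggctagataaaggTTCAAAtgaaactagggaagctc
Ube2c: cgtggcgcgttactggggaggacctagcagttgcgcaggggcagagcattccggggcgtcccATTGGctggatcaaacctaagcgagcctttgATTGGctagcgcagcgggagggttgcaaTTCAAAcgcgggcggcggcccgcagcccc
Cdk1: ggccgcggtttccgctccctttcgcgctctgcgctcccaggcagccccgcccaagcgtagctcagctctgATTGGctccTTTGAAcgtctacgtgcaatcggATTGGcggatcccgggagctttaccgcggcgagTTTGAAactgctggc
Kif11: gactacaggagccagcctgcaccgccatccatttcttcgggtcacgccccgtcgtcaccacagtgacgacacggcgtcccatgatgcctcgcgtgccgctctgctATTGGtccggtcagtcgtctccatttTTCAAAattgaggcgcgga
Ccnb2: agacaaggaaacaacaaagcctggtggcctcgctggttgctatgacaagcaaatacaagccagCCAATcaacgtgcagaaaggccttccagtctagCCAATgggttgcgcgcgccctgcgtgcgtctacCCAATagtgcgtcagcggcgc
Mad2l1: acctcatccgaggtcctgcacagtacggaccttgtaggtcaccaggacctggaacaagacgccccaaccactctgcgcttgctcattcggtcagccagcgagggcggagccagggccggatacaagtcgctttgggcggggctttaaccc

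In Top2a the CHR motif nearest the start begins 23 bases before it, and Y boxes begin 58, 78, 98 and 149 bases before it. In Ube2c the CHR motif begins 29 bases before the start and the nearest Y boxes 57 and 88 bases before. Cdk1 has CHR motifs 15 and 71 bases before its start, the nearer one downstream of Y boxes at 48 and 80. This order, a CHR motif near the start with a Y box further upstream, is also seen in the printed window of Kif11 (19 and 45 bases before). These windows are picked examples, and in most members with a CHR motif near the start it lay after the start. In Ccnb2 the Y boxes begin 21, 54 and 87 bases before the start and a CHR motif lies 5 bases after it, outside the printed stretch.

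Over the 35 windows, 26 (74.3%) held a CHR motif, against 11.6% of the 9621 windows of genes measured on the arrays and 18.1% of all 27025 genes in the table. A CHR motif from 60 bases before the start to the window's end was present in 24 (68.6%), against 3.18% of measured genes. The limit of 60 bases was chosen after the positions were seen. In most of the 24 this motif began after the start, as in Bub1b (41 bases after) and Plk1 (31 bases after). A Y box was present in 27 (77.1%), against 38.3%, and both motifs in 23 (65.7%), against 4.61%. Y boxes whose starts lay 31 to 35 bases apart, a spacing also chosen after the positions were seen, were found in 9 windows (25.7%), against 2.37% of measured genes. The E2F letters were present in 4 (11.4%), against 12.4%. Of 42 windows of other spindle and kinetochore genes, a list described below, 50% held a CHR motif, 66.7% a Y box and 38.1% both. For 31 windows of DNA replication and S phase genes these shares were 16.1%, 64.5% and 12.9%. For 11 windows of anaphase-promoting complex subunits they were 9.09%, 36.4% and 0%. The motifs were thus not particular to the members. These matches are letters in a window and not bound sites. The ratios of members with and without the CHR letters overlapped: the 26 members with a CHR motif had a median log2 ratio of 1.02 (0.17 to 1.93), and the 8 members with a window and a signal but no CHR motif 1.23 (0.43 to 1.45).

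**Figure D3:**
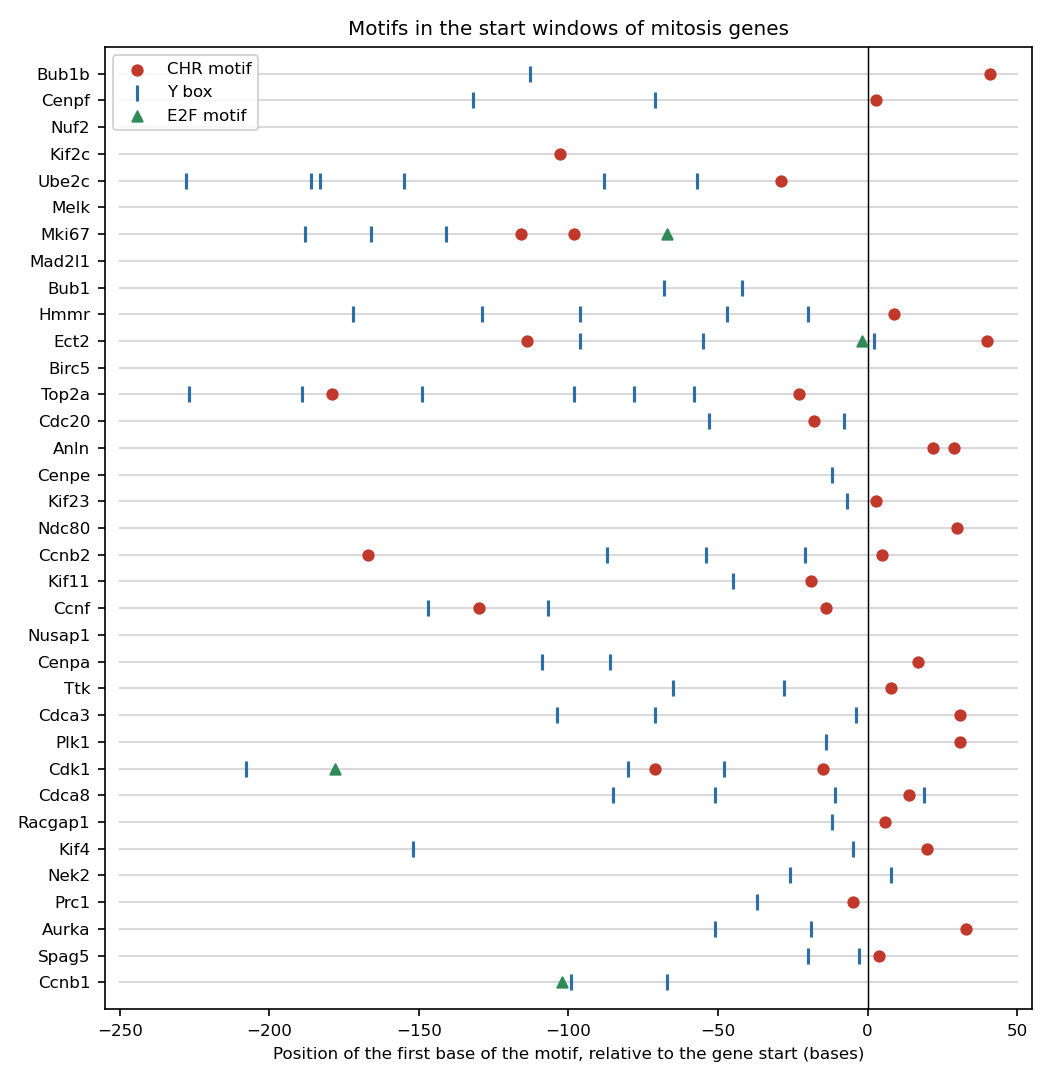
Position of the first base of each CHR motif, Y box and E2F motif relative to the gene start, in bases, for the 35 mitosis genes with a start window. Genes are ordered by log2 ratio from the top, with Ccnb1, for which no probe set was found, last. CHR motifs gather near the start and Y boxes upstream of them; Nuf2, Melk, Mad2l1, Birc5 and Nusap1 carry none of these letters.

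Cdk1 and the cyclins and regulators that switch it on were higher by similar amounts, all 6 measured genes at least 1.5-fold and 1 of them at least 2-fold. Cdk1, the kinase that starts mitosis, had a signal of 648 with retinoic acid against 369 in control, 1.75-fold higher. Ccna2, cyclin A2 of S phase and mitotic entry, had 549 against 308 (1.78-fold), and its second probe set gave a log2 ratio of 0.97 beside 0.83. Ccnb2, a B cyclin, had 380 with retinoic acid against 187 in control. The kinase and both of these cyclins differed by a similar factor. Ccnf, the F-box protein cyclin F, had 66.8 with retinoic acid against 33.5 in control. Cdc25c, the phosphatase that removes inhibitory phosphates from Cdk1, had 59.1 against 31.6 (1.87-fold), but a log2 ratio of 0.25 on its other probe set. Both genes had control signals little above the control array's floor of 26.5. Cdca3, which promotes loss of the inhibitory kinase Wee1 at mitotic entry, had 244 with retinoic acid against 129 in control on its brightest probe set (1.89-fold). A dimmer Cdca3 probe set had 29.9 against 38.9, a log2 ratio of −0.38, so its direction depends on the probe set.

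The mitotic kinases were spread more widely, with log2 ratios from 0.30 to 1.38. Melk, a kinase of dividing and progenitor cells, had a signal of 153 with retinoic acid against 58.7 in control, 2.61-fold higher. Aurkb, the Aurora kinase of the chromosomal passenger complex, had 162 against 70.3 (2.31-fold), with a second probe set at a log2 ratio of 1.55. Plk1, the Polo-like kinase that drives centrosome maturation and mitotic entry, had 221 against 119 (1.86-fold). These 3 differences sat near or above the group's median, and the next 2 kinases sat well below it. Aurka, the Aurora kinase of the spindle poles, had 148 with retinoic acid against 120 in control, 1.23-fold higher. Nek2, which separates centrosomes, had 126 against 93.0 (1.35-fold), although its dimmer probe set had 73.1 against 36.6. Pbk, a mitotic kinase also known as TOPK, had 648 against 346 (1.87-fold). The other passenger subunits were higher too: Birc5, which encodes survivin, had 403 with retinoic acid against 177 in control (2.27-fold). Cdca8, which encodes borealin, had 286 against 179 (1.60-fold), with all 3 of its probe sets between 0.57 and 0.79 on the log2 scale.

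The 4 spindle assembly checkpoint genes included the member with the highest ratio and had a median log2 ratio of 1.29. Bub1b, which encodes the checkpoint protein BubR1, had a signal of 165 with retinoic acid against 43.5 in control, 3.80-fold higher, and its second probe set gave a log2 ratio of 1.28. Mad2l1, which encodes Mad2, the inhibitor of Cdc20, had 624 against 251. Bub1, the kinase that recruits checkpoint proteins to kinetochores, had 286 against 118 (2.42-fold). These 3 genes exceeded 2-fold, and Ttk came close to it. Ttk, the checkpoint kinase Mps1, had 105 with retinoic acid against 55.2 in control, 1.91-fold higher. On the opposite side of the checkpoint, both partners of the anaphase-promoting complex were at least 2-fold higher. Ube2c, its ubiquitin-conjugating enzyme, whose start window is printed above, had 967 against 366 (2.64-fold). Cdc20, its activator in mitosis, had 983 against 462 on the brightest probe set (2.13-fold) and 417 against 317 on another, a log2 ratio of 0.40.

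Kinetochore genes had log2 ratios from 0.96 to 1.49 on their brightest probe sets, 4 of 5 at least 2-fold higher. Cenpf, a large outer kinetochore protein, had a signal of 310 with retinoic acid against 110 in control, 2.82-fold higher; its other probe sets gave log2 ratios of 0.95 and 0.0021, the last at signals near the floor. Nuf2 and Ndc80 encode partners in the complex that binds microtubules. Nuf2 had 219 against 80.0 (2.74-fold) and Ndc80 had 108 against 52.0 (2.08-fold). Cenpe, a kinesin that moves chromosomes to the spindle equator, had 151 against 72.0 (2.10-fold). Its other probe set had 126 against 82.9, a log2 ratio of 0.60. Cenpa, the histone variant that marks centromeres, had 362 with retinoic acid against 186 in control (1.94-fold). Another Cenpa probe set was above the floor only with retinoic acid, at least 1.34-fold higher.

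Spindle motors and microtubule proteins held both large and small differences, 3 of 7 at least 2-fold. Kif2c, the depolymerising kinesin MCAK, had a signal of 275 with retinoic acid against 102 in control, 2.69-fold higher on its brightest probe set and by log2 ratios of 0.72 and 0.52 on the others. Hmmr, a spindle protein and hyaluronan receptor, had 351 against 148 (2.37-fold), and 4 probe sets above the floor lay between 0.83 and 1.62 on the log2 scale. Kif11, the kinesin Eg5 that pushes spindle poles apart, had 147 against 72.7, with its 3 probe sets between 0.73 and 1.02. The probe sets of Hmmr and Kif11 thus all pointed the same way. Nusap1, which bundles microtubules, had 404 with retinoic acid against 208 in control. Kif4, a chromosome-bound kinesin, had 129 against 84.5 (1.53-fold). Tpx2, the spindle activator of Aurora A, had 280 against 166 (1.68-fold) on its brightest probe set, but 2 dimmer ones had log2 ratios of −0.081 and −0.46. Spag5, the spindle protein astrin, was among the smallest differences, at 72.8 with retinoic acid against 64.6 in control (1.13-fold). Another Spag5 probe set was above the floor only in control and at least 1.41-fold lower with retinoic acid.

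The genes of the central spindle and cytokinesis were all higher, with log2 ratios from 0.33 to 1.22. Ect2, the exchange factor that activates RhoA at the cleavage furrow, had a signal of 517 with retinoic acid against 222 in control, 2.33-fold higher. Anln, the furrow scaffold anillin, had 865 against 408 (2.12-fold). Kif23, the kinesin of centralspindlin, had 204 against 97.1 (2.10-fold). Its partner Racgap1 differed less, with 216 with retinoic acid against 138 in control (1.56-fold) and a second probe set at a log2 ratio of 0.66. Kif20a, a kinesin of the central spindle, had 221 against 124 (1.79-fold). Prc1, which cross-links its microtubules, had 311 against 247 (1.26-fold), with 0.45 on the log2 scale from the second probe set. Of the markers of dividing nuclei, Top2a, the topoisomerase that untangles sister chromosomes, had 898 with retinoic acid against 403 in control (2.23-fold), and Mki67, the antigen Ki-67, had 725 against 282 (2.58-fold).

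Foxm1, the transcription factor that drives many of these genes late in the cycle, had the lowest ratio of the 41. Its brightest probe set had a signal of 80.3 with retinoic acid against 74.1 in control, 1.08-fold higher, at the 58.9th percentile of all measured genes, where Bub1b lay at the 98.0th. Its dimmer probe sets gave larger values: 48.9 against 31.5, a log2 ratio of 0.64, and 48.8 against 19.3, the control signal below the floor, at least 1.84-fold higher. The ratio of Foxm1 thus depends on the probe set.

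Probe sets of a gene are repeat readings of the same RNA. The 41 genes had 90 probe sets, of which 68 were above the floor on both arrays, 8 on 1 array only and 14 on neither. Of the 68, 65 were higher with retinoic acid and 3 lower, and 25 were at least 2-fold higher, where 5.95% of all such probe sets were. In 17 of the 19 genes with several such probe sets all of them were higher; the exceptions were Cdca3 and Tpx2. The second brightest probe sets of these 19 genes had a median log2 ratio of 0.72, against 0.92 for the brightest of the same genes, and 3 of the 19 were at least 2-fold higher. The pooled SD between probe sets of a gene was 0.43 for the members and 0.30 over 4993 genes. It describes the scatter of a single reading about the mean of its gene, so a difference between members scatters by more than that. That scatter holds no variation between cultures.

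**Figure D4:**
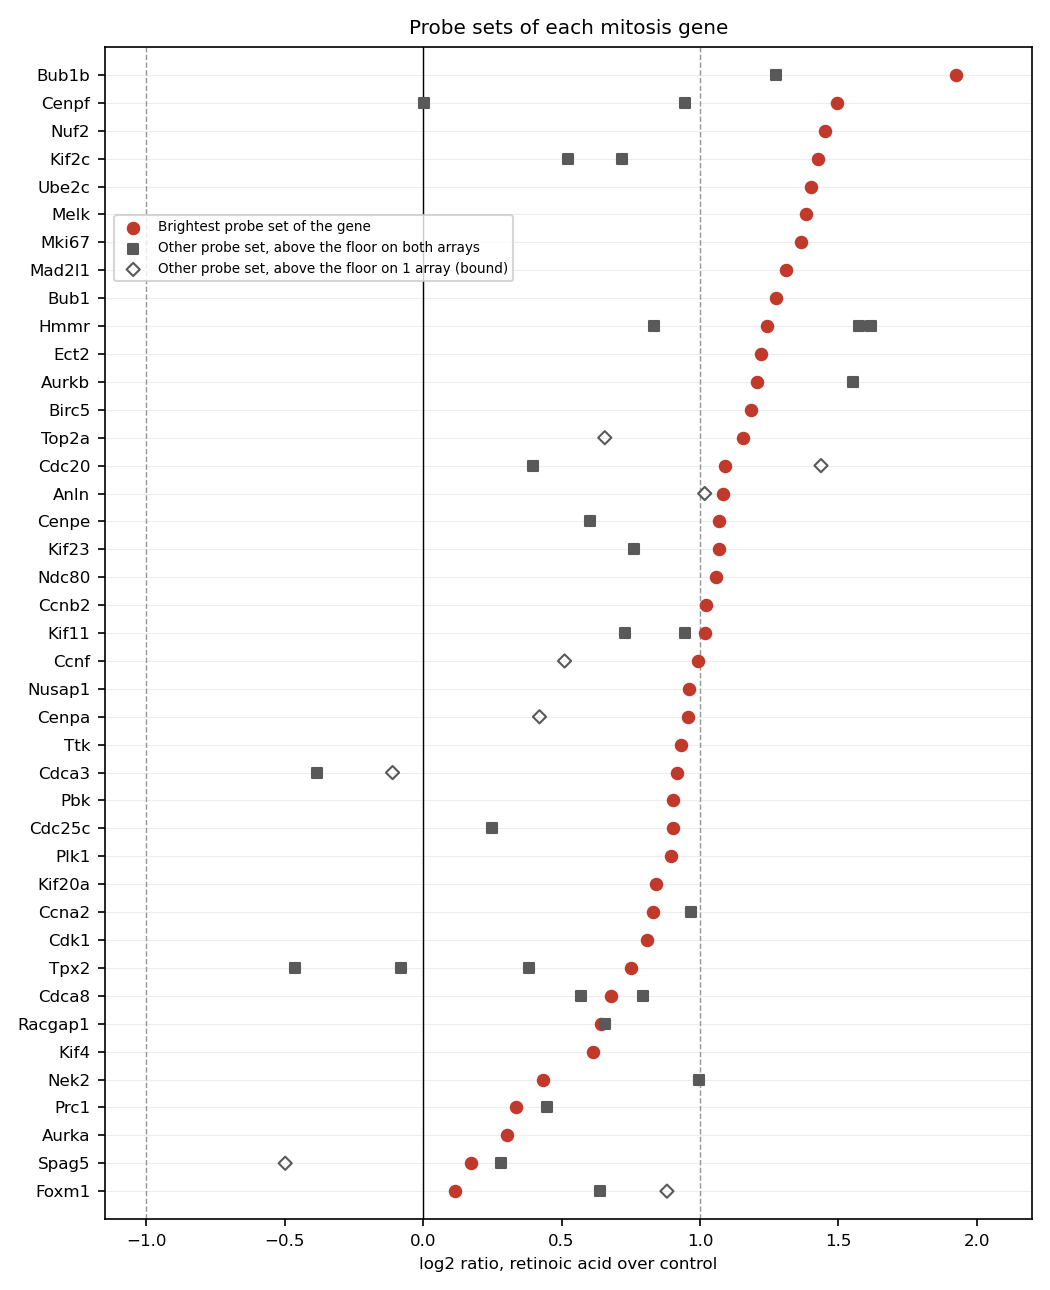
The log2 ratio of retinoic acid over control for each probe set of the 41 mitosis genes above the floor on at least 1 array, genes ordered by their brightest probe set. Red circles are the brightest probe sets, grey squares and open diamonds the others; dashed lines mark 2-fold, and points of Cdca3, Tpx2 and Spag5 lie left of 0.

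Other cell cycle genes, in lists grouped by function, were read in the same way. Of 49 further measured spindle and kinetochore genes, 15 (30.6%, against 6.54% of all measured genes) exceeded 2-fold upward and 0 downward. Their median log2 ratio was 0.73. Pimreg, a mitotic regulator, had 131 with retinoic acid against 51.4 in control (2.55-fold). Cep55, needed for the final cut between daughter cells, had 410 against 166 (2.47-fold). Incenp, the scaffold of the passenger complex, had 457 against 192 (2.38-fold), near the values of Aurkb and Birc5. Condensin and cohesin genes had a median of 0.30 over 19 genes, with 2 at least 2-fold higher (10.5%, near the 6.54% of all measured genes). Esco2, which acetylates cohesin in S phase, had 148 with retinoic acid against 35.2 in control (4.19-fold). Its control signal was little above the control array's floor of 26.5. Ncaph had 281 against 131 (2.14-fold) and Smc2 731 against 367 (1.99-fold). Among 16 other regulators of mitotic entry and exit 0 reached 2-fold in either direction, with a median of 0.46. The phosphatase gene Cdc25a had 192 against 98.7 (1.95-fold), Cks2, which encodes a small Cdk1 subunit, 1268 against 653 (1.94-fold), and the inhibitory kinase gene Wee1 308 against 160 (1.92-fold).

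Lists of DNA replication, of D cyclins and CDK inhibitors and of anaphase-promoting complex subunits had lower medians than the members. The first of these medians lay above that of condensin and cohesin genes (0.30) and below that of the other entry and exit regulators (0.46). DNA replication and S phase genes had a median log2 ratio of 0.38 over 38 measured genes. Of these 5 (13.2%, against 6.54% of all measured genes) were past 2-fold upward and 0 downward. Tk1, thymidine kinase, had 294 with retinoic acid against 121 in control (2.44-fold), Gins1 124 against 52.9 (2.35-fold) and Uhrf1 225 against 96.4 (2.34-fold), while Pcna, the replication clamp, had 2409 against 1799 (1.34-fold). The list of D cyclins and CDK inhibitors, which also holds the kinase partners of the D cyclins, had a median of −0.10 over 13 genes with 0 past 2-fold. Ccnd1, cyclin D1, had 1710 against 871 (1.96-fold), Cdkn3 192 against 112 (1.72-fold), and Cdkn2b, the inhibitor p15, 463 against 888 (1.92-fold lower); Cdkn1a, the inhibitor p21, had 1328 with retinoic acid against 1733 in control (1.30-fold lower). The 12 subunits of the anaphase-promoting complex itself, which cells make throughout the cycle, lay between −0.26 and 0.31 with a median of −0.029. Anapc10 had 479 with retinoic acid against 386 in control (1.24-fold), Anapc2 744 against 608 (1.22-fold) and Cdc16 1378 against 1655 (a log2 ratio of −0.26). The complex's activator Cdc20 and its ubiquitin-conjugating enzyme Ube2c were both past 2-fold on their brightest probe sets. Another Cdc20 probe set was not, at 417 with retinoic acid against 317 in control.

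Of 20 regulators in the E2F, RB, DREAM and B-Myb list 2 exceeded 2-fold upward (10%, near the 6.54% of all measured genes) and 0 downward. The median was 0.27. Mybl1, a Myb factor, had 207 with retinoic acid against 69.4 in control (2.99-fold), Tfdp2, a partner of E2F factors, 337 against 167 (2.01-fold) and E2f7 108 against 68.6 (1.58-fold). Lin9, a MuvB subunit, had 107 against 69.1 (1.55-fold). E2f1, an activator of S phase genes, had 148 against 179 (1.21-fold lower), and Mybl2, B-Myb, was above the floor only with retinoic acid, at 36.5 (at least 1.38-fold higher). No test compared these lists with each other.

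**Figure D5:**
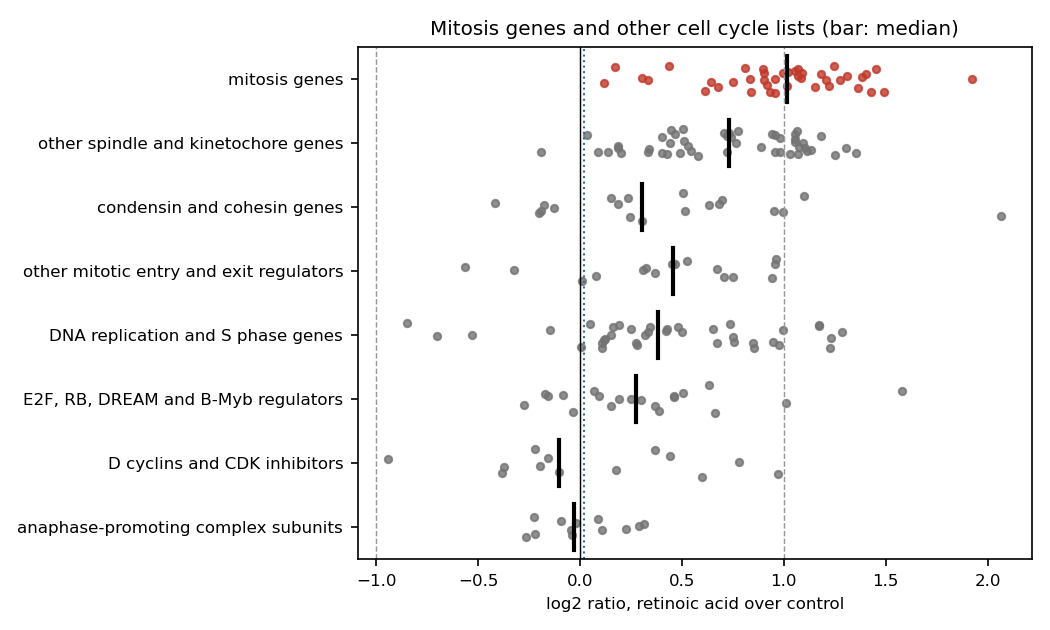
The log2 ratio of retinoic acid over control for each measured gene of the mitosis group and of the other cell cycle lists, 1 point per gene, with a black bar at the median, dashed lines at 2-fold and a dotted line at the median of all genes. The medians are 1.02 for the mitosis genes, 0.73 for other spindle and kinetochore genes, −0.029 for subunits of the anaphase-promoting complex and −0.10 for D cyclins and CDK inhibitors.

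The 2 arrays were close in scale and RNA integrity. The 18 probe sets of the hybridisation spike-ins gave ratios of retinoic acid over control of 0.863 to 1.15, with a median of 1.05, and the ratio of 3′ to 5′ signal was 1.25 with retinoic acid and 1.29 in control for Actb, and 0.839 with retinoic acid and 0.824 in control for Gapdh. The cells carried chondrocyte markers, but 9 of 12 were at least 2-fold lower with retinoic acid, where 4.34% of all measured genes were. The summed signal of the 12 was 27878 with retinoic acid against 62687 in control. Acan had 157 against 5066, Col2a1 7366 against 9538 and Prg4, the lubricin gene, 1148 against 1920. Of 6 measured superficial zone markers 1, Clu, was at least 2-fold higher (6138 against 1027), 0 were past 2-fold downward, and their median log2 ratio was −0.65. Of 11 macrophage and leukocyte markers 4 were below the floor on both arrays, Ptprc among them, 0 of the 7 others reached 2-fold, and the summed signal of all 11 was 710 with retinoic acid against 638 in control. Of 8 endothelial markers 6 were below the floor on both arrays, Pecam1 and Cdh5 among them. The sum of the 8 was 200 with retinoic acid against 101 in control, and Cldn5, at 108 against 22.7, was at least 4.08-fold higher. Of 9 skeletal muscle markers 3 were below the floor on both arrays and 1 of the 6 others (Des, 50.3 against 114) was at least 2-fold lower. The sum of the 9 was 484 with retinoic acid against 491 in control. All 3 erythroid markers were below the floor. The part of the chondrocyte, superficial zone and other cell type markers in the mitosis values was not tested.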

How the data were processed

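Biotin-labelled cRNA from each culture was hybridised to 1 array, per the labels' protocols, with samples grouped by the labelled treatment. The deposited intensities are linear MAS5 signals per probe set, per the submitters' processing notes; the version, the scaling target and any detection calls are not stated there. No scaling was added. Names came from the platform annotation; 932 with several symbols, 1 of which lists Foxm1, and 9160 with none were left out. All 41 members kept their symbol in the RefSeq gene table.

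Values at or below an array's median signal (29.7 with retinoic acid, 26.5 in control) were set to that floor. Each gene takes the values of its brightest probe set, by mean log2 signal over both arrays. Genes above the floor on 1 array only have a bound, written "at least". No test was run, since 1 array per group allows none, and the number of arrays limits the precision. The members and lists were chosen with earlier results of these data known. The text names all members, per list the 3 genes of largest absolute log2 ratio above both floors, and E2f1, Mybl2, Lin9, Pcna, Ccnd1, Cdkn1a, Col2a1, Acan and Prg4. Ptprc, Lyz2, Pecam1, Cdh5 and Cldn5 were added after their values were seen. The 3 genes of the marker lists are named only where a sentence turned on them. The counting step was tested on simulated data, with planted differences larger than those of most members and only in brighter genes. That test checks the code and does not measure the precision of the members' counts. Alternatives were other floors, none or an offset, 3 scalings, the median over probe sets and unique probe sets. Python 3.11.15, numpy 2.4.6, pandas 2.3.3, statsmodels 0.14.6 and matplotlib 3.10.9 were used.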

Additional observations from a re-analysis of the deposited data

How the results depend on the processing

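Each alternative was run on the counts of members and on their median. The count of members at least 2-fold higher, 21 as reported, was 13 of 34 measured when the floor was the 70th percentile and 12 of 31 with unique probe sets only. Of the 8 members below 2-fold under the higher floor 1 was no longer measured and 7 were, their ratios smaller because the raised floor replaces lower signals. For Bub1b the log2 ratio was then 0.44, a bound. Of the 9 below 2-fold with unique probe sets 5 had no measured probe set left and 4 took another probe set. Under the other 7 alternatives it lay between 15 and 21, and 0 members were at least 2-fold lower under any of the 9. The members' median log2 ratio lay between 0.88 and 1.02 in all 9, while the median of all genes lay between −0.063 after quantile normalization and 0.084 with the offset. Leaving out members no longer measured, there were 352 comparisons of a member with its reported log2 ratio. Of these, 329 moved by less than 0.30, the scatter between probe sets over all genes (0.43 for the members). A further 21 moved by more with the same sign and 2 changed sign. Both sign changes were Cdca3, at −0.11 with the median over probe sets and with unique probe sets only. The 329 include comparisons fixed in advance. With the 30th percentile floor or no floor no member could move, since all 41 lay above the reported floor. Setting the median of all genes to 0 moved every member by the same small amount. No paired analysis was possible because each group held 1 sample. With 1 array per group, no alternative that leaves out a sample could be run.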
